A study of Mus musculus with 3 samples.

Results

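CTCFL peaks at the starts of non-coding transcripts made up 301 of the 7436 CTCFL peaks of induced mouse embryonic stem (ES) cells. A peak was counted here by its center, the midpoint of its interval. The center had to lie between 2 kb upstream and 1 kb downstream of the annotated start of a GENCODE transcript not typed protein_coding. For a small RNA this is the first annotated base, which need not be where transcription begins. Peaks in the same window of a protein-coding start were left out, as were peaks within 1 kb of a protein-coding transcript end or in a protein-coding exon. Of the 1448 peaks that lay in a non-coding window, 1064 were left out as protein-coding promoters, 43 as transcript ends and 40 as exons. The rule used position alone and no binding strength.

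The study mapped the male germ cell factor CTCFL by chromatin immunoprecipitation and sequencing (ChIP-sequencing) in ES cells that carry a Tet-on CTCFL_V5_GFP transgene. Cells grown with LIF were given doxycycline for 3 days, sorted for GFP and precipitated with the V5 antibody. The other 2 samples were the same V5 precipitation from non-induced, unsorted cells and a precipitation with CTCF antibody, and neither was analysed here. Each condition had a single library, which leaves no replicate spread, and the reads behind a peak are unknown. The intervals below are 95% Wilson intervals that cover counting error only. The tagged CTCFL came from a transgene, whereas the endogenous gene is known for its expression in male germ cells.

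CTCFL, also called BORIS, is the germ line paralog of CTCF and shares its zinc finger DNA-binding domain, whereas CTCF is made in nearly every cell. Both recognise a GC-rich consensus, and CTCF is known for its part in insulators and chromatin loops. Many genes give rise to RNA that is not translated. Long non-coding RNAs can have promoters of their own, often with CpG islands. Small nuclear and small nucleolar RNAs guide splicing and RNA modification, and microRNAs are cut from longer precursors and repress mRNAs. Retained-intron and processed transcripts of a protein-coding gene often start inside that gene, and pseudogenes are copies that lost their coding function.

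The consensus used to look for a binding sequence has 14 positions, of which 10 are fixed: CC at positions 1 and 2, then 3 free bases, then AGGNGGCGC. Positions were counted from 1 at the 5′ end and both strands were searched. A few stretches are shown because they hold the match at the host genes of 2 studied non-coding RNAs. The rest hold the exact match nearest a peak center in each transcript type with 5 or more peaks, where there was one. Each is 80 bases of mm9, written 5′ to 3′ along the strand of the match, and the capitals mark the match. They lie at chr14:115441413-115441492 (minus strand) for Mir17hg, chr2:26495811-26495890 (minus) for Snhg7, chr2:19352864-19352943 (plus) for Gm13344 and chr15:32175898-32175977 (plus) for Snord123.
Mir17hg: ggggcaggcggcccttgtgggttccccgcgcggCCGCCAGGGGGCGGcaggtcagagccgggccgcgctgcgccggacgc
Snhg7: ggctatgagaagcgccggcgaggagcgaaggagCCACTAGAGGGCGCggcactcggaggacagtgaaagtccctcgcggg
Gm13344: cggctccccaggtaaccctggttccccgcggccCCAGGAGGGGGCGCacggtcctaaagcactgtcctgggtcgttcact
Snord123: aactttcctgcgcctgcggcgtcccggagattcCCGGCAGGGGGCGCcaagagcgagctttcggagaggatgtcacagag

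The next stretches come from starts inside the protein-coding genes Tgfb1 and Cpne5, from C4a and from pseudogenes. They lie at chr7:26473244-26473323 (plus) for Tgfb1, chr17:29314011-29314090 (plus) for Cpne5, chr17:34950849-34950928 (minus) for C4a, chr8:74045718-74045797 (minus) for Gm7850 and chr7:28058869-28058948 (plus) for Gm15570.
Tgfb1: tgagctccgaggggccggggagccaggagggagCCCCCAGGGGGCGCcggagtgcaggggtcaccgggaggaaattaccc
Cpne5: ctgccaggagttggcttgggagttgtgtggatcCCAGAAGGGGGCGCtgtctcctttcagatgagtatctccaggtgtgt
C4a: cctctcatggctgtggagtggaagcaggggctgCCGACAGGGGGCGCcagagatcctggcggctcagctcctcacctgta
Gm7850: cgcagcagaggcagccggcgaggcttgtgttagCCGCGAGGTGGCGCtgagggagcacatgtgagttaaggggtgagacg
Gm15570: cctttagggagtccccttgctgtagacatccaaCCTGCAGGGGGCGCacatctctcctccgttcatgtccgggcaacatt
The Mir17hg match carries the single substitution C14G and the Snhg7 match G8A, with the consensus base written before the position and the base of the site after it. The other stretches meet all fixed positions.

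The 301 peaks covered 19 of the 30 transcript types other than protein_coding that the annotation holds. By the type of the nearest non-coding start, 87 peaks lay at a processed_transcript, 59 at a retained_intron, 32 at a lincRNA, 25 at an antisense transcript and 23 at a transcribed_processed_pseudogene. A further 20 lay at a miRNA, 15 at an snRNA, 9 at a transcribed_unprocessed_pseudogene, 7 at an snoRNA, and 5 each at a nonsense_mediated_decay transcript and a pseudogene. The remaining 8 types held 1 to 4 peaks each. Of the processed transcripts 72 belonged to a protein-coding gene, and of the retained-intron transcripts 55 did. For 70 peaks 2 or more non-coding starts were in reach, and for 26 these were of 2 or more types, so that the count under every type in the window was 94 for processed_transcript, 67 for retained_intron, 29 for antisense, 23 for miRNA and 12 for snoRNA.

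**Figure D1:**
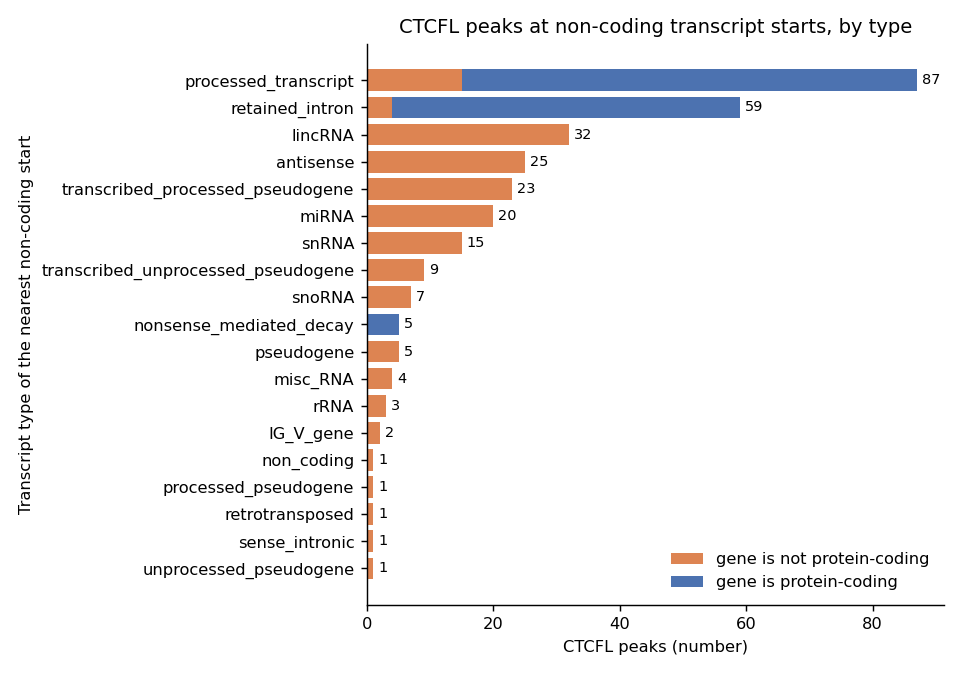
Number of CTCFL peaks (horizontal axis) by the transcript type of the nearest non-coding start (vertical axis), split by whether the gene itself is protein-coding (blue) or not (orange). Processed transcripts (87) and retained introns (59) lead and are mostly transcripts of protein-coding genes, whereas the other types apart from nonsense_mediated_decay belong to genes that are not protein-coding.

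Grouped by kind of gene, 132 peaks (43.9%) lay at non-coding transcripts of protein-coding genes, 78 (25.9%) at long non-coding RNAs, 49 (16.3%) at small RNAs, 40 (13.3%) at pseudogenes and 2 at immune receptor segments. In the first of these groups 119 of 132 peaks were inside an intron of a protein-coding transcript. The same was true of 23 of 78 at long non-coding RNAs, 15 of 49 at small RNAs and 13 of 40 at pseudogenes. In all, 170 peaks were in such an intron and 131 were outside protein-coding transcripts. The nearest protein-coding start was a median of 11216 bp away from the center and never closer than 1033 bp, and 41 peaks had it within 3000 bp. The peaks belonged to 296 genes by nearest start, so that nearly every gene had 1 peak.

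The peaks were spread over 19 chromosomes. Chromosomes 2, 11 and 4 held the most, with 36, 34 and 27, and these are also the chromosomes with the most annotated non-coding transcripts (5614, 4384 and 4144). Chromosome 19 held none among its 249 CTCFL peaks, which allows a share of up to 1.20% by the limit of 3 counts. There, 32 peaks lay in a non-coding window, 28 of which were left out as protein-coding promoters and 4 as transcript ends or exons. Chromosome X held 3 of 117 peaks (2.56%). Over the whole list the count was 301 of 7436. On the chromosomes with such peaks the share ran from 2.40% on chromosome 10 to 7.32% on chromosome 16. How far the depth of the annotation sets these numbers was not tested.

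Most peaks lay upstream of the start, as the window does. The center was upstream in 195 of 301 peaks (64.8%, 59.2 to 69.96%), in an exon of the transcript in 40, in an intron in 50 and beyond the end of a short transcript in 16. The upstream part makes up 66.7% of the window. Within 250 bp of the start lay 95 peaks (31.6%, 26.6 to 37.0%). This band makes up 16.7% of the window. Each peak was given its nearest start, which favors short distances where several starts are in reach. At protein-coding promoters 54.4% of 2344 peaks (52.4 to 56.4%) were that close to the nearest protein-coding start. The groups were not alike. At long non-coding RNAs 32 of 78 peaks (41.0%, 30.8 to 52.1%) and at small RNAs 19 of 49 (38.8%, 26.4 to 52.8%) lay within 250 bp. At pseudogenes it was 11 of 40 (27.5%, 16.1 to 42.8%) and at transcripts of protein-coding genes 31 of 132 (23.5%, 17.1 to 31.4%). The intervals of the long non-coding RNAs and of the protein-coding genes overlap at their edges, and the difference was not tested.

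**Figure D2:**
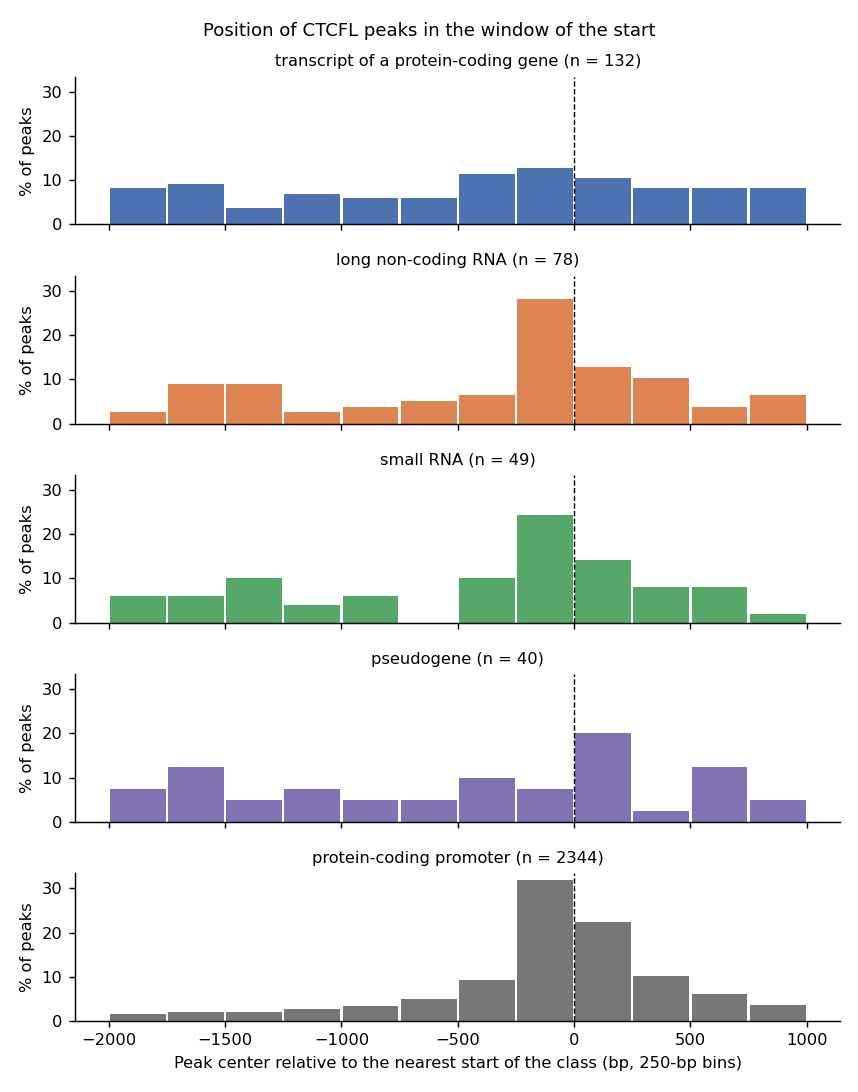
Share of peaks (vertical axis, percent of the group) by position of the peak center relative to the nearest start (horizontal axis, bp in 250-bp bins, upstream negative), with 1 panel per group and the protein-coding promoter peaks at the bottom (the 2 receptor segment peaks are not drawn). Long non-coding RNAs, small RNAs and protein-coding promoters have their highest bin just upstream of the start. At small RNAs this bin holds 12 of 49 peaks, and their annotated start need not be where transcription begins. Peaks at transcripts of protein-coding genes are spread more evenly across the window.

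The non-coding starts were also counted gene by gene. A start was eligible when it was not itself in a protein-coding promoter window, transcript end window or exon. Of 16735 genes with an eligible non-coding start, 277 had a CTCFL peak in its window (1.66%, 1.47 to 1.86%). A further 44 genes had such a peak only at a start that was not eligible. A peak counted for each gene whose window held it, and the intervals treat these genes as independent. The Mir17hg peak, for example, lay in the windows of Mir17, Mir18, Mir19a and Mir20a, and miRNA windows held 23 peaks. The highest share was that of lincRNA genes, with 32 of 618 (5.18%, 3.69 to 7.22%), whose interval lies above those of all other non-coding gene types except the types with under 100 genes, none of which had a peak. Non-coding starts of protein-coding genes followed with 100 of 3900 (2.56%, 2.11 to 3.11%), then processed_transcript genes with 43 of 1939 (2.22%, 1.65 to 2.97%) and miRNA genes with 26 of 1346 (1.93%, 1.32 to 2.82%), and these neighbors overlap. The share was 16 of 1338 for snRNA genes (1.20%, 0.737 to 1.93%), 13 of 1401 for snoRNA genes (0.928%, 0.543 to 1.58%) and 39 of 4944 for pseudogenes (0.789%, 0.578 to 1.08%). For comparison, 2513 of 22365 protein-coding genes (11.2%) had a CTCFL peak in the window of a protein-coding start. The rules differ. A peak in a non-coding window was left out if it also lay in a protein-coding promoter window, transcript end window or exon. No such exclusion applied to protein-coding starts, and its part in the gap was not tested. Gene numbers and their peaks depend on how completely each type is annotated, which was not tested.

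**Figure D3:**
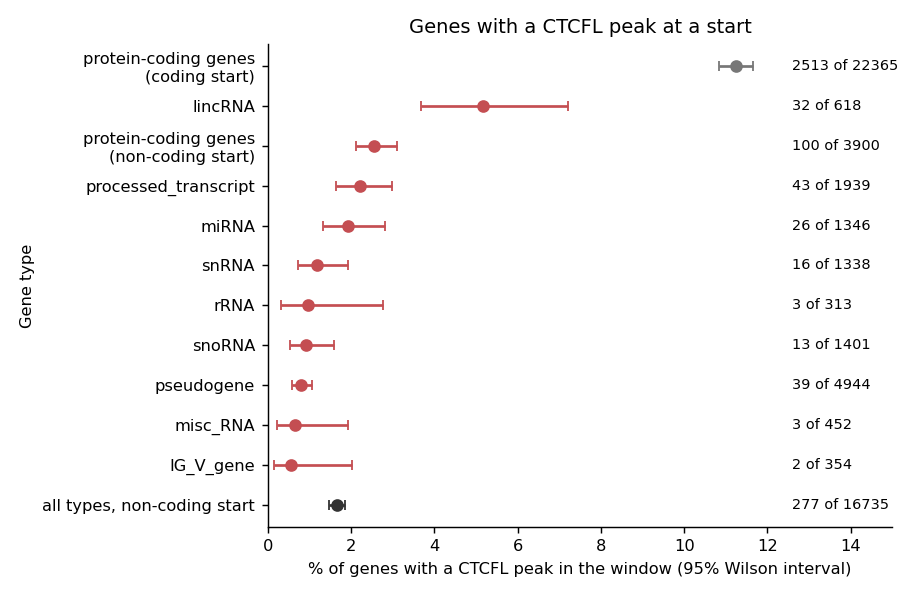
Share of genes with a CTCFL peak in the window of a start (horizontal axis, percent, with 95% Wilson intervals) by gene type, with the counts at the right. Protein-coding starts stand at 11.2% and lincRNA genes at 5.18%, and the other non-coding types drawn lie between 0.565% and 2.56%. Types with under 100 genes, all at 0%, are not drawn. Peaks in protein-coding promoter windows, transcript end windows or exons were left out for non-coding starts only.

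Among studied non-coding genes, a peak was present at Mir17hg, the host transcript of the miR-17-92 cluster, a set of microRNAs known for promoting proliferation. The peak was 685 bp wide, from 115441183 to 115441867 on chromosome 14 (mm9), with its center 576 bp upstream of the start and 49912 bp from the nearest protein-coding start, that of Gpc5. Its central 500 bp had a GC content of 69.0% and a ratio of observed to expected CpG of 0.868. All of its 36-base windows were unique in the genome. The annotated precursors began 1368 bp (Mir17) to 2124 bp (Mir92-1) downstream of the peak center. Mature microRNAs of the cluster are shown because they are what this transcript yields, with 1 arm for each of the 6 precursors and the other 5 arms of the table left out. They are RefSeq sequences (annotation on GRCm38.p6), with bases 2 to 8, the seed, in capitals.
mmu-miR-17-5p: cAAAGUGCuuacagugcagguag
mmu-miR-20a-5p: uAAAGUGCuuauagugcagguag
mmu-miR-18a-5p: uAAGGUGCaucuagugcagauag
mmu-miR-19a-3p: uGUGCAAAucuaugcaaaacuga
mmu-miR-19b-3p: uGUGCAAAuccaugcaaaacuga
mmu-miR-92a-3p: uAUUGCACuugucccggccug
Of those shown, miR-17-5p and miR-20a-5p share the seed AAAGUGC, miR-19a-3p and miR-19b-3p share GUGCAAA, and miR-18a-5p (AAGGUGC) and miR-92a-3p (AUUGCAC) each have their own.

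The peak at Snhg7, a host gene of small nucleolar RNAs, lay on the start itself. It ran from 26495511 to 26496011 on chromosome 2 (501 bp), with a center 3 bp into the exon. It was CpG-rich, with a GC content of 57.2% and a ratio of 0.944, and fully unique. Mir17hg and Snhg7 were the only genes with such a peak on 5 lists of studied non-coding genes, which held 57 names, of which 44 were found in the annotation. Over all genes with an eligible non-coding start the share with a peak was 1.66%, and numbers this small do not set the lists apart from it. The lists covered X inactivation (a peak at 0 of 4 genes), imprinted non-coding genes (0 of 7), snoRNA hosts (1 of 8), other studied non-coding RNAs (1 of 13) and the ES cell microRNA clusters Mir290 to Mir295 and Mir302 with Mir367 (0 of 12).

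Of the 32 lincRNA peaks, 13 lay within 250 bp of the start and 9 over 1000 bp upstream. The widest was at Gm2529 on chromosome 8 (87188687 to 87189756, 1070 bp), with the center 195 bp downstream in an intron of the transcript, a GC content of 58.0% and no match at up to 1 mismatch. The exact match shown above for Snord123 came from a peak at 32175702 to 32176176 on chromosome 15, 1522 bp upstream of the annotated start and in an intron of Sema5a, an axon guidance gene. The nearest protein-coding start was 1081 bp from that peak, so it fell just outside the promoter window of Sema5a, and 86.8% of its windows were unique. At Pisd-ps2 on chromosome 17 a pair of peaks had centers 1977 bp apart. The one at 3081440 to 3083204 (1765 bp, 52.5% unique windows) lay at a transcribed_unprocessed_pseudogene start. The one at 3084016 to 3084581 (566 bp, 62.2% unique windows) lay at a lincRNA start. Among antisense transcripts the peak nearest its start was at Gm12320 on chromosome 11 (70568472 to 70568830, 2 bp downstream), and the widest was at Pisd-ps1 on the same chromosome (3026729 to 3028067, 1339 bp), with 46.1% unique windows. The exact match at Gm13344 was in a fully unique peak of 471 bp (chromosome 2, 19352676 to 19353146), 699 bp downstream of the start and 14379 bp from Ptf1a, a pancreatic and neural transcription factor gene.

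Among transcripts of protein-coding genes, the peak nearest its start was at Zfp644, a zinc finger gene (chromosome 5, 107003604 to 107003857, center 3 bp downstream). It had the highest GC content of the named peaks, 74.4%, and its nearest protein-coding start was 34386 bp away. The widest was at Rcc2, which encodes a regulator of chromosome condensation (chromosome 4, 140269478 to 140270548, 1071 bp), with an exact match and its center 253 bp upstream of a processed transcript. At Cpne5, a copine gene, the peak ran from 29313728 to 29314377 on chromosome 17, 425 bp upstream of a processed transcript and 42052 bp from the nearest protein-coding start. At Tgfb1, which encodes the growth factor TGF-beta 1, a peak of 651 bp (chromosome 7, 26472975 to 26473625) lay 646 bp upstream of a nonsense_mediated_decay transcript and 1279 bp from a protein-coding start of the same gene, and it held an exact match. Among retained introns, the peak nearest its start was at Limch1 (chromosome 5, 67388074 to 67388565, 11 bp upstream) with 2 matches, and the widest at Sema4a (chromosome 3, 88244178 to 88244932, 755 bp).

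Mink1, Cuedc1 and Cdh23 each had 2 such peaks. Those of the kinase gene Mink1 had centers 3247 bp apart on chromosome 11, at 70418666 to 70419253 and 70422018 to 70422396, and both held a match (G13A and C1A). Those of Cuedc1 lay 25616 bp apart on the same chromosome, at 87975510 to 87975928 and 88000988 to 88001681, 44 bp upstream and 12 bp downstream of their starts, and neither held a match. Those of the cadherin gene Cdh23 lay 33155 bp apart on chromosome 10, at 60117083 to 60117586 and 60150205 to 60150774, and the latter was CpG-rich with 2 matches. C4a, a complement gene that this annotation release types as a processed transcript, had a peak of 266 bp on chromosome 17 (34950761 to 34951026) with an exact match, 1693 bp upstream of a retained-intron transcript. Only 86.2% of its windows were unique. C4a has a close copy in the genome, so the assignment of this peak to it is uncertain.

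The 49 peaks at small RNAs were 20 at microRNAs, 15 at snRNAs, 7 at snoRNAs, 4 at miscellaneous RNAs and 3 at ribosomal RNAs. Of the snRNA peaks, 9 lay at copies of U6, the spliceosomal RNA made by RNA polymerase III, each at a separate locus. The U6 copy with the peak nearest its start was on chromosome 3 (104504412 to 104505218, 807 bp, center 22 bp downstream), and this was also the widest snRNA peak. At Scarna2, a guide RNA of Cajal bodies, a peak of 865 bp lay on chromosome 3 (108357288 to 108358152), 51 bp upstream. Of the microRNA peaks, 9 of 20 lay within 250 bp of the annotated precursor and 13 were upstream. The nearest was at mmu-mir-689-2 on chromosome 16 (11144063 to 11144299, 37 bp upstream), where only 16.8% of windows were unique. The widest was at AC113316.1 on chromosome 5 (147072221 to 147073101, 881 bp). The names of 3 of the 20 were found in the RefSeq table: Mir26a-1, Mir342 and Mir1932.

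Their peaks lay upstream of the precursor, and the mature sequences are shown because these are the only named microRNAs of the group that could be matched. The peak at Mir26a-1 (chromosome 9, 118938627 to 118939233) had its center 1984 bp upstream, close to the edge of the window, in an intron of Ctdspl. At Mir342 (chromosome 12, 109895610 to 109895936) it was 1057 bp upstream, in an intron of Evl. At Mir1932 (chromosome 11, 119251026 to 119251580) it was 483 bp upstream and CpG-rich (GC 63.6%). No seed was shared.
mmu-miR-26a-5p: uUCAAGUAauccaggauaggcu
mmu-miR-342-3p: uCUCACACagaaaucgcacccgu
mmu-miR-1932: gUUGCGGAcagcgcuaggucgg

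The rarer types added single peaks. Those at 5S_rRNA copies lay on chromosome 14 (103204982 to 103205580, 35 bp upstream) and chromosome 5 (92546886 to 92547417, 157 bp downstream of the start), and the third ribosomal peak was at n-R5-8s1 on chromosome 18 (73692964 to 73693252). The miscellaneous RNAs were a locus annotated as 7SK, in an intron of Fermt2 on chromosome 14 (46082086 to 46082434, 940 bp upstream), Vault (36961120 to 36961700, 110 bp upstream) and AC102240.1 (65587034 to 65587278) on chromosome 18, and AC153624.1 on chromosome 6 (39410097 to 39410354). AC153624.1 was the only small RNA whose peak had an exact match. Receptor segments had peaks at Trav3-1 on chromosome 14 (53200093 to 53200518, 76 bp upstream) and Igkv2-137 on chromosome 6 (67505296 to 67506009, 23 bp downstream), which hold variable segments of the T cell receptor and of an immunoglobulin light chain. Types with 1 peak were non_coding (1110038B12Rik), sense_intronic (Gm11669), processed_pseudogene (Gm20447), retrotransposed (Gm6525) and unprocessed_pseudogene (C920025E04Rik).

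The peaks at pseudogenes varied most in width. The widest peak of the whole list, 2893 bp, lay at Gm11408 on chromosome 4 (79648300 to 79651192), with the center 72 bp downstream of the start and in the transcript. It was AT-rich, with a GC content of 33.2% and 88.2% unique windows, and had no match. Gm13340 on chromosome 2 (22443978 to 22446148, 2171 bp) was similar, with a GC content of 37.2%, no match and 48.3% unique windows. Gm3835 on chromosome 8 had its peak (74953607 to 74954093) 1 bp from its start, with the substitution G8A and 85.4% unique windows. Gm7850 on the same chromosome (74045272 to 74046014) and Gm15570 on chromosome 7 (28058605 to 28059336, inside Numbl) held exact matches 1829 and 1560 bp upstream of their starts. Kctd12, typed as a pseudogene in this annotation release, had a peak of 969 bp on chromosome 14 (103380420 to 103381388) with 3 matches and a GC content of 68.4%. At 2610005L07Rik on chromosome 8 (20020084 to 20020784) the center was 21 bp upstream, and 43.7% of windows were unique.

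At most 1 mismatch from the consensus was seen in 137 of the 301 peaks (45.5%, 40.0 to 51.2%), against 43.9% of all CTCFL peaks. At protein-coding promoters the share was 53.6% (51.6 to 55.6%), and in intron and intergenic peaks away from any start it was 36.2% (34.8 to 37.7%). Windows of the same width placed 2 kb to either side held a match in 18 of 602 cases at these peaks (2.99%, 1.90 to 4.68%) and in 2.17% of cases around all peaks. The groups again differed in level. The share was 54.5% at transcripts of protein-coding genes (72 of 132, 46.0 to 62.8%), 44.9% at long non-coding RNAs (35 of 78, 34.3 to 55.9%) and 45.0% at pseudogenes (18 of 40, 30.7 to 60.2%). At small RNAs it was 24.5% (12 of 49, 14.6 to 38.1%), and this interval lies below that of all CTCFL peaks (42.8 to 45.0%) and that of the transcripts of protein-coding genes. For microRNAs alone 3 of 20 peaks had a match.

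An exact match was found in 25 of the 301 peaks (8.31%, 5.69 to 11.97%), whereas 12.8% of all CTCFL peaks (12.04 to 13.55%) had one. In intron and intergenic peaks away from any start the share was 11.2% (10.28 to 12.19%), and this interval overlaps that of the 301. At protein-coding promoters it was 13.8% (12.48 to 15.28%). Of the 25, 16 were at transcripts of protein-coding genes, 6 at long non-coding RNAs (C4a among them), 2 at pseudogenes and 1 at a small RNA. In 115 of the 137 peaks with a match (83.9%) it lay within 100 bp of the peak center, as in 83.2% of all CTCFL peaks with a match. The match was on the strand of the transcript in 65 of 137 (47.4%, 39.3 to 55.8%). Of the 112 peaks whose best match had 1 mismatch, 22 carried G8A (19.6%, 13.3 to 28.0%) and 14 carried C12A (12.5%, 7.59 to 19.9%). The shares over all CTCFL peaks were 17.4% and 8.42%, inside both intervals. The Snhg7 site printed above is an example of G8A.

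**Figure D4:**
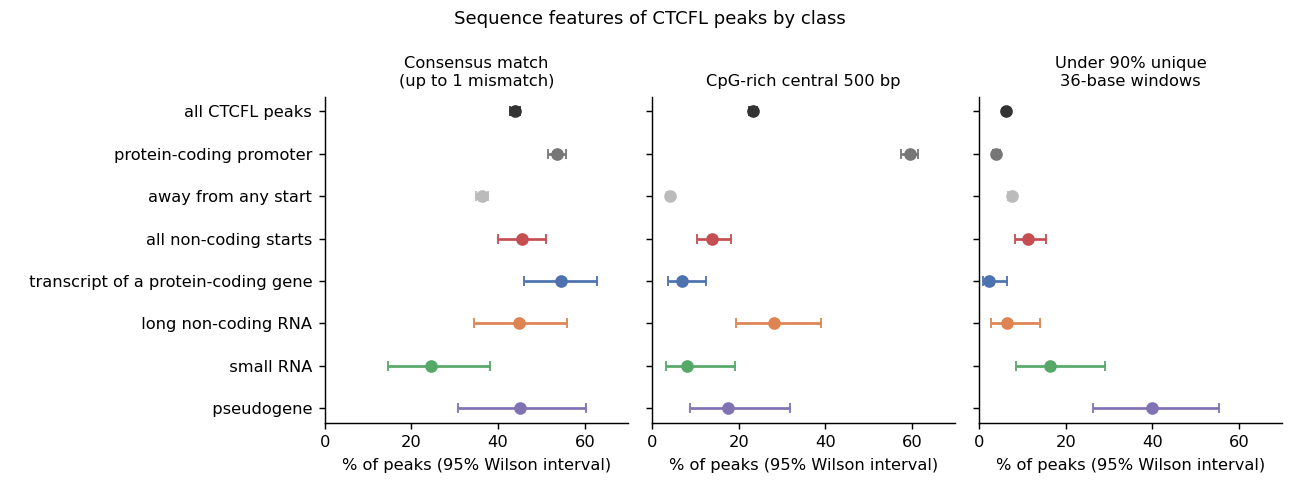
Share of peaks (horizontal axes, percent, points with 95% Wilson intervals) that held a consensus match, were CpG-rich or had under 90% unique 36-base windows, for all CTCFL peaks, comparison classes and the groups of non-coding starts, without the 2 receptor segment peaks. Among the 4 groups drawn, small RNAs have the lowest share of matches (24.5%), long non-coding RNAs the highest CpG-rich share (28.2%) and pseudogenes the highest share in repeated sequence (40.0%).

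A peak was called CpG-rich when its central 500 bp had a GC content of at least 55% and a ratio of observed to expected CpG of at least 0.6. This held for 42 of the 301 peaks (13.9%, 10.5 to 18.3%), against 23.3% of all CTCFL peaks. The share lay between that of protein-coding promoters (59.5%, 57.5 to 61.5%) and that of intron and intergenic peaks away from any start (4.09%, 3.53 to 4.74%). Long non-coding RNAs had 22 of 78 (28.2%, 19.4 to 39.0%), pseudogenes 7 of 40 (17.5%, 8.75 to 32.0%), small RNAs 4 of 49 (8.16%, 3.22 to 19.2%) and transcripts of protein-coding genes 9 of 132 (6.82%, 3.63 to 12.4%). The intervals of the long non-coding RNAs and of the transcripts of protein-coding genes do not overlap. Among lincRNAs alone 13 of 32 peaks were CpG-rich (40.6%, 25.5 to 57.7%).

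CpG-rich peaks lay near the start. The share was 26.3% within 250 bp (25 of 95, 18.5 to 35.97%), 10.4% beyond that up to 1000 bp (13 of 125, 6.18 to 17.0%) and 4.94% farther away (4 of 81, 1.94 to 12.02%). At long non-coding RNAs 15 of the 32 peaks within 250 bp were CpG-rich (46.9%, 30.9 to 63.5%), and 7 of the 46 farther away (15.2%, 7.57 to 28.2%). At transcripts of protein-coding genes the counts were 6 of 31 and 3 of 101. The 15 include peaks at Ascl4 and Spata5l1. Like Efcab8 and C4a, these carry names of protein genes but count as long non-coding RNAs here, because this annotation release types them as processed_transcript. How far they bear on the shares was not tested. CpG-rich peaks had a median width of 543 bp, compared with 471 bp for all 301 peaks and 515 bp for protein-coding promoters. Of the 42, 24 had a match (57.1%, 42.2 to 70.9%), and of the other 259, 113 did (43.6%, 37.7 to 49.7%), so the intervals overlap. Jarid2, a Polycomb cofactor gene, and Srebf1, a regulator of lipid synthesis, were among the protein-coding genes with a CpG-rich peak at a processed transcript, at 392 and 416 bp upstream. Both were picked after their values were seen.

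**Figure D5:**
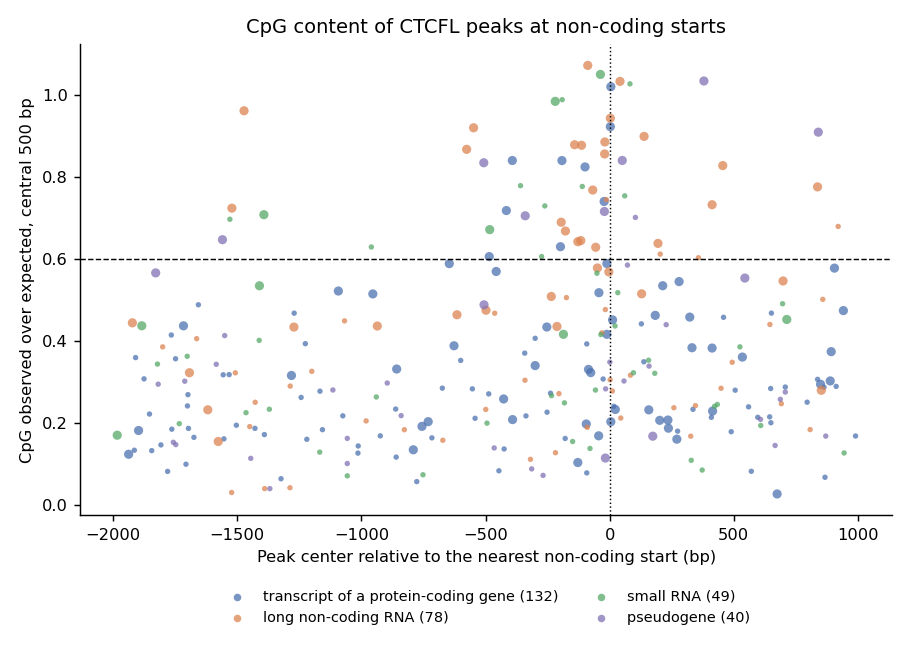
Ratio of observed to expected CpG in the central 500 bp of each peak (vertical axis) by position of its center relative to the nearest non-coding start (horizontal axis, bp), colored by group, without the 2 receptor segment peaks. Large points have a GC content of at least 55% and the dashed line marks a ratio of 0.6, so that large points on or above it are the CpG-rich peaks, most of them within 1000 bp of the start.

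Repeated sequence was found mainly at pseudogenes and small RNAs. Under 90% of 36-base windows were unique in 34 of the 301 peaks (11.3%, 8.20 to 15.4%), against 6.27% of all CTCFL peaks (5.74 to 6.84%). In intron and intergenic peaks away from any start the share was 7.47% (6.71 to 8.30%), and this interval overlaps that of the 301. At protein-coding promoters it was 3.97% (3.25 to 4.84%). Pseudogenes made up 16 of the 34 (40.0% of their 40 peaks, 26.3 to 55.4%) and small RNAs 8 (16.3% of 49, 8.51 to 29.04%). Long non-coding RNAs had 5 of 78 (6.41%, 2.77 to 14.1%) and transcripts of protein-coding genes 3 of 132 (2.27%, 0.776 to 6.47%). Both receptor segments were among the 34. Without pseudogenes, small RNAs and receptor segments the share was 3.81% (8 of 210). Reads of 36 bp cannot be placed uniquely in such windows, and the genes named for these peaks are uncertain.

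Under 50% of windows were unique in 9 peaks, 4 of which lay in a stretch of 227.9 kb on chromosome 1, from 85111223 to 85339082, and these were picked after their values were seen. They were at the transcribed unprocessed pseudogenes Gm16038, Gm16026 (2 peaks, 85270250 to 85271322 and 85274185 to 85274603) and Gm7281, with 0% to 9.52% unique windows. The median 36-base window of these peaks occurred 10 times in the genome at Gm16038, 8 times in both Gm16026 peaks and 4 times at Gm7281. Of the Gm16026 peaks, 1 held a match (C2A). The others under 50% were mmu-mir-689-2, SNORD116 on chromosome 7 (67007250 to 67007674, 35.4% unique, 752 bp upstream), 2610005L07Rik, Pisd-ps1 and Gm13340. SNORD116 belongs to the family of repeated small nucleolar RNAs of the imprinted Prader-Willi region.

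Peak widths were close to those of the list as a whole. The median was 471 bp with quartiles of 374 and 584 bp, against 454 bp for all CTCFL peaks, 515 bp for protein-coding promoters and 415 bp for peaks away from any start. Peaks within 250 bp of a non-coding start had a median of 507 bp, those farther away but within 1000 bp 452 bp, and the rest 442 bp. Peaks inside introns of protein-coding transcripts and peaks outside such transcripts had medians of 474 and 461 bp. A further CTCFL peak lay within 10 kb of 43 of the 301, and within 1000 bp of only 1. The matching shares of all CTCFL peaks are not given here. The median distance between the centers of a peak and its nearest neighbor was 41660 bp, against 56462 bp for all CTCFL peaks.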

How the data were processed

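ChIP-sequencing was done on 3 samples, 1 library each, and the deposited table used here is the list of CTCFL peaks of the induced cells. Reads of 36 bp were mapped to the mouse genome (ELAND) by the authors. For their comparative analysis reads were aligned to mm9 with BOWTIE and peaks called with MACS under a false discovery rate limit. The list itself does not name the aligner or limit behind it, and its total differs from the number of CTCFL sites stated by the study for a reason that is not given. Its values are the start and end of each peak, with no score or read number, so the depth per sample is unknown. A track header names it a summary of the induced peaks. No peaks of the other 2 samples were used.

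Starts were converted to 1-based positions. Transcript types came from GENCODE vM1 on NCBIM37, the same build as mm9, whose chromosome lengths matched. The members and the gene lists were chosen with earlier results of these data known. Named genes were those on the lists, in each type with 5 or more peaks the nearest, the widest and the exact match nearest a peak center, all peaks of rarer types, and genes with 2 or more peaks. Consensus matches, CpG content and 36-base windows occurring more than once in the genome were computed with Python 3.11.15, numpy 2.4.6, pandas 2.3.3, pysam 0.24.0 and numba 0.67.0, and intervals with scipy 1.17.1. The consensus was a CTCF-type pattern and not fitted to CTCFL. By the study's numbering, its CTCFL motif has C less often at positions 1 and 2, and A less often at position 6, than its CTCF motif. The assignment of peaks to starts was tested with peaks planted at known starts, and the consensus search with sites planted in random sequence. CpG content, gene counts and the copy numbers of windows in the genome had no such test. With 1 library per condition no test between groups was run, and shares were compared by their 95% Wilson intervals. Alternatives changed the window, the exclusions, the types, the mismatches, the CpG limits and the uniqueness limit.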

Additional observations from a re-analysis of the deposited data

How the results depend on the processing

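Of the 35 alternatives over 17 counts and shares, 21 stayed within 1.5 times the count or inside the 95% interval of the share, and 14 moved, each under an alternative that by its construction admits other peaks, starts or matches or sets another limit on the measure. The number of peaks, 301, became 178 with a window from -1 kb to +0.5 kb, 169 with only genes that are not protein-coding, 162 among peaks no narrower than the median and 164 when every transcript of a protein-coding gene, not only its coding ones, excluded a peak. It was 263 without pseudogene types, 267 with only peaks of at least 90% unique windows and 342 when any base of the peak in the window counted. The snoRNA count became 12 under every type in the window. The upstream share became 51.8% in a window of 1 kb on either side. The consensus share became 8.31% for exact matches, 76.1% with up to 2 mismatches and 36.9% in the central 200 bp. The CpG-rich share became 8.31% with a ratio of at least 0.75. The share in repeated sequence became 2.99% under 50% unique windows and 3.81% without pseudogenes, small RNAs and receptor segments, the latter added after seeing the data. The share of genes with a peak became 2.02% without pseudogene types and 1.03% with the narrow window. The other 5 alternatives added after seeing the data stayed within these limits. No paired analysis was possible because there was 1 library per condition and the results come from no test. No replicate could be left out. Without scores or read numbers, strong and weak peaks cannot be told apart, CTCFL-only and shared sites were not separated, and a start in the annotation need not be used in ES cells, where no RNA was measured here.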

Other observations

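Of the 44 listed non-coding genes found in the annotation, 2 had a CTCFL peak in their window that was left out because it also lay in a protein-coding promoter window. The snoRNA host Snhg3 had a peak at 131909303 to 131909755 on chromosome 4 (mm9), 19 bp downstream of its start, in the promoter window of Rcc1, a chromatin-bound guanine nucleotide exchange factor gene. Nespas, an antisense transcript of the imprinted Gnas locus, had a peak at 174121428 to 174121911 on chromosome 2, 733 bp upstream of its start and in a promoter window of Gnas.

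The other 40 had no CTCFL peak in the window. The nearest peak to Xist, Tsix, Jpx and Ftx, which act in X inactivation, was 1215774, 1180623, 1242662 and 1365969 bp from their starts. It was 38400 bp from H19 and 103146 bp from Meg3, both imprinted genes, with the peak upstream of Meg3. Malat1 and Neat1, neighbors on chromosome 19 that yield abundant nuclear RNAs, had their nearest peak 15563 bp upstream and 26399 bp downstream of their starts. Mir290, at the head of the main microRNA cluster of ES cells, had its nearest peak 81902 bp downstream of its start, and Mir302a had it 27252 bp away. Snhg11 and Snhg9 came closest, with peaks 4243 bp downstream and 4486 bp upstream of their starts. Direction is along the strand of each gene.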
